A study of Homo sapiens with 6 samples.

Results

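Collagen genes were described in KYSE510, an established line of oesophageal squamous cell carcinoma, used here as a model of induced R-loops, structures of an RNA:DNA hybrid and a displaced DNA strand. The members were all genes of the count table whose symbol is COL, a number, A and a number, which gave 44 collagen genes among 62700 gene IDs. The 6 libraries formed 2 groups of 3. The shRNH1 group (genotype RNH1 knockdown) carried a short hairpin RNA named for RNH1, and the shControl group (genotype WT) carried a control hairpin. Both groups were KYSE510 grown in the same medium with serum. The sample titles name each library a biological replicate. The sources used here do not say whether the cells were pools or clones, or how the replicates were grown. The p-values therefore describe the variation among these libraries, and how much of it is technical is not known.

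Collagens are trimers of chains that wind into a triple helix, and they differ in what the trimers build. Fibrillar collagens form the fibres of connective tissue, and the FACIT collagens lie on the surface of those fibres. Type IV collagens form the sheet of the basement membrane on which an epithelium rests. Type XVII collagen, a transmembrane protein of the hemidesmosome, ties basal squamous cells to that sheet, and type VII collagen forms the anchoring fibrils that tie the sheet to the tissue beneath. A squamous epithelium makes the chains of this attachment zone itself, whereas the fibrillar types I and III come mainly from fibroblasts.

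Library totals ran from 31394687 to 33421217 counts in shRNH1 and from 40225486 to 41103220 counts in shControl. RNASEH1, which encodes the nuclease that cuts RNA in RNA:DNA hybrids, was at 22.6% of its control level in shRNH1 libraries (95% interval 19.2% to 26.7%), with counts of 251, 247 and 232 against 1357, 1344 and 1015 in shControl. RNH1, the symbol of the ribonuclease inhibitor, was at 87.5% (74.6% to 103%) and did not pass the test. All 14 squamous markers listed were tested, and 5 were called higher and 5 lower in shRNH1, where 27.6% of all genes tested were called. SOX2, DSC3, PERP and JUP were higher (log2 fold changes of 2.68, 1.11, 0.54 and 0.28), as was PKP1, which passed the filter on low counts through the shRNH1 libraries alone, with 10, 21 and 16 counts in shRNH1 and 2, 1 and 0 counts in shControl. KRT6A, KRT14, KRT5, SFN and KRT15 were lower (-2.13, -1.40, -1.33, -0.37 and -0.33). In 15 alternative analyses the call of JUP was lost in 9, that of KRT15 in 3 and that of SFN in 1. TP63 was not called, at 52.5 ± 4.38 CPM in shRNH1 and 53.2 ± 3.64 CPM in shControl (SD, n = 3 each). The part of these marker differences in the collagen results was not tested. CPM values are counts scaled to a common library total with TMM factors.

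KYSE510 cells had counts for 40 of the 44 collagen genes, and most of that signal was in few genes. The genes COL1A2, COL6A5, COL9A1 and COL22A1 were listed at 0 in all 6 libraries, where 3 counts would be 0.0726 to 0.0909 CPM. Another 11 genes had at most 16 counts in a library and were not tested, namely COL3A1, COL11A1 and COL24A1 of the fibrillar class, COL14A1, COL19A1 and COL21A1 of the FACITs, COL4A3, COL6A3, COL8A1, COL23A1 and COL25A1. That left 29 genes past the filter on low counts, which asks for 0.272 CPM, or about 10 counts, in at least 3 libraries. Of these, 25 met that level in every library, COL2A1 and COL20A1 in every library of shRNH1 only, and COL6A6 in every library of shControl only.

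To compare genes with each other, CPM was divided by the kilobases of exon of each gene (RPKM). The highest level was that of COL5A1, a fibrillar chain that sets fibril diameter, at 55.5 ± 9.06 RPKM in shRNH1 and 57.9 ± 9.94 RPKM in shControl (SD, n = 3 each). COL6A1, a chain of beaded filaments, followed with 49.1 ± 3.20 RPKM in shRNH1 and 35.6 ± 4.44 RPKM in shControl. COL17A1 had 40.2 ± 2.43 RPKM in shRNH1 and 29.7 ± 1.39 RPKM in shControl. COL7A1 had 18.1 ± 2.54 RPKM in shRNH1 and 33.1 ± 2.40 RPKM in shControl. With the length of all exons, COL7A1 lay below COL17A1 in shRNH1 and above it in shControl, in both groups by more than the SD of either gene. The gap depends on that length. Over all 6 libraries COL7A1 averaged 25.6 RPKM with all exons and 30.5 RPKM with its longest transcript, and COL17A1 35.0 RPKM and 43.4 RPKM. The gap within each group was not taken with the longest transcripts. In shControl the RPKM of COL6A1 and COL7A1 lay within their spread of each other. Next in order of the mean over all libraries were COL18A1 (16.3 RPKM in shRNH1 and 18.6 RPKM in shControl), COL4A6 (15.3 RPKM in shRNH1 and 16.1 RPKM in shControl), COL4A2 (11.1 RPKM in shRNH1 and 14.4 RPKM in shControl), COL1A1 (12.5 RPKM in shRNH1 and 6.36 RPKM in shControl), COL4A5 (10.2 RPKM in shRNH1 and 7.92 RPKM in shControl) and COL12A1 (8.51 RPKM in shRNH1 and 8.68 RPKM in shControl). These levels depend on the length used: over all 6 libraries COL4A2 averaged 12.7 RPKM with the length of all its exons and 37.8 RPKM with that of its longest transcript.

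**Figure D1:**
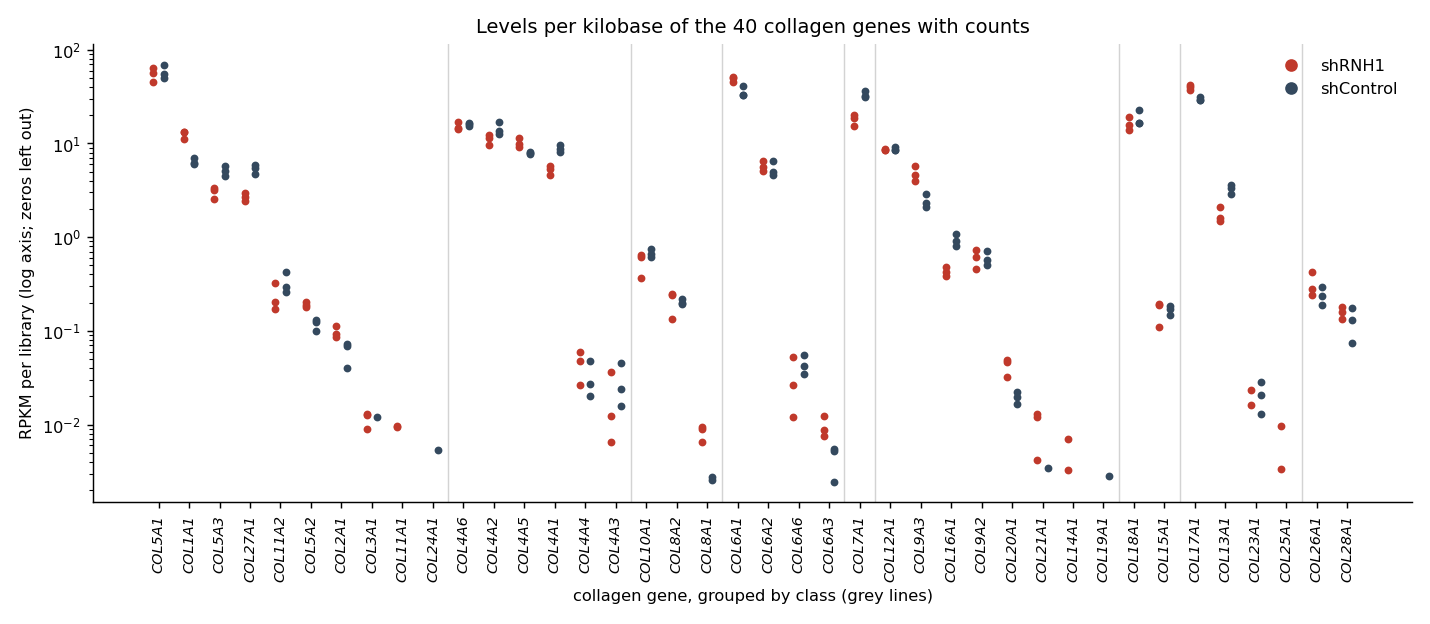
RPKM in each library on a log axis for the 40 collagen genes with counts, grouped by class, with shRNH1 in red left of shControl in dark blue; zeros are left out. The genes COL5A1, COL6A1, COL17A1 and COL7A1 lie at the top, and many genes lie below 1 RPKM.

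Among the 29 tested collagen genes, 5 were higher and 7 were lower in shRNH1 than in shControl cells, at an adjusted p under 0.05. The test was edgeR's quasi-likelihood (QL) test, adjusted by the Benjamini-Hochberg (BH) method over all genes tested. The genes COL1A1, COL9A3, COL6A1, COL17A1 and COL4A5 rose, and COL27A1, COL7A1, COL4A1, COL13A1, COL16A1, COL5A3 and COL4A2 fell. The background over all 19682 genes tested was 15.3% called higher and 12.3% called lower, or 27.6% in all, against 12 of 29 collagen genes (41.4%). Without TMM, by library size alone, the split over all genes was 4065 higher and 1433 lower, in place of 3006 and 2418, and the median log2 fold change of all genes was 0.11 higher; all 12 collagen calls kept their direction. Calls were more frequent at high levels: 11 of the 16 tested collagen genes with a mean of at least 1 RPKM were called, and 1 of the 13 below it. The share of all genes called at each of these levels was not taken. The 41.4% is therefore not set against genes of like level. The median log2 fold change of the 29 was -0.02, and that of all genes tested was 0.02. Groups did not overlap for 15 of the 29, against 40% of all genes tested. In RNA from whole cultures, fewer cells that express a gene and less RNA per cell cannot be told apart.

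The sum over all 44 genes did not separate the groups, with 2532, 2617 and 2143 CPM in shRNH1 and 2463, 2400 and 2899 CPM in shControl. Its make-up differed between the groups. The anchoring fibril gene COL7A1 took 7.88% to 8.55% of the collagen counts of a library in shRNH1, against 13.7% to 14.7% in shControl. Beaded filament genes took 11.6% to 12.6% in shRNH1 against 8.27% to 8.74% in shControl, and transmembrane collagens 11.4% to 12.8% in shRNH1 against 8.37% to 9.36% in shControl. Most of the beaded filament share was COL6A1 alone, with a mean of 10.8% in shRNH1 and 7.34% in shControl. Most of the transmembrane share was COL17A1, with 11.7% in shRNH1 and 8.16% in shControl. COL13A1 of that class went the other way, with 0.418% in shRNH1 and 0.747% in shControl. Fibrillar genes took 31.5% to 34.8% in shRNH1 and 30.7% to 33.1% in shControl, which overlap. Type IV genes took 21.8% to 23.7% in shRNH1 and 24.6% to 25.7% in shControl. These shares are sums over genes of unequal length and are given without a test.

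**Figure D2:**
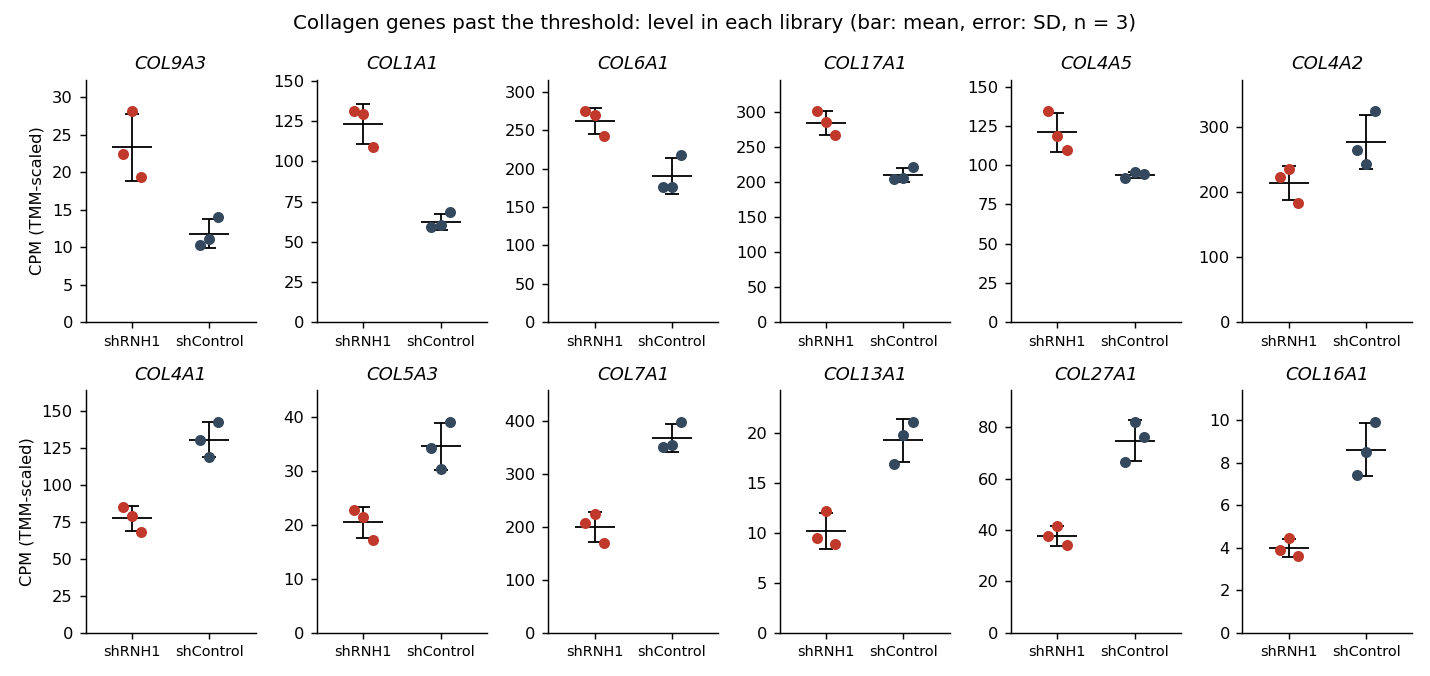
CPM in each library (points), with mean and SD over 3 libraries, for the 12 collagen genes past the threshold, in order of log2 fold change; shRNH1 stands left of shControl and each axis starts at 0. The first 5 genes are higher and the other 7 lower in shRNH1, and in none of the 12 do the groups overlap.

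Of the collagens in the attachment zone of a squamous epithelium, COL7A1 and COL17A1 moved in opposite directions. COL7A1 (ENSG00000114270; GRCh38 chromosome 3, 48564073 to 48595267, minus strand), mutated in dystrophic epidermolysis bullosa, measured 207, 224 and 169 CPM in shRNH1 libraries, against 350, 353 and 397 CPM in shControl libraries. Every shRNH1 library lay below every shControl library. COL7A1 fell to 54.5% of its control level (95% interval 46.9% to 63.2%; adjusted p = 3.44e-07, edgeR QL, BH adjustment). COL17A1 (ENSG00000065618; chromosome 10, 104031286 to 104085957, minus strand), the transmembrane collagen of the hemidesmosome, measured 300.3, 286 and 266 CPM in shRNH1, against 204, 205 and 222 CPM in shControl. It rose 1.35-fold (1.18 to 1.54; adjusted p = 0.000748, edgeR QL, BH adjustment), again without overlap of the groups. None of 4 other hemidesmosome genes on the list of collagen-binding partners was called higher. Of all genes tested, 15.3% were called higher and 12.3% lower. The integrin chains ITGA6 and ITGB4, which form the hemidesmosomal laminin receptor, had log2 fold changes of -0.42 and -0.57, and PLEC, the plectin that links it to keratin, had -0.86, all 3 past the threshold. DST, whose epithelial form is a plakin of the same plaque, had a log2 fold change of -0.03 and was not called.

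The other tested transmembrane collagen, COL13A1 (ENSG00000197467; chromosome 10, 69801867 to 69964275, plus strand), found at adhesions and at the neuromuscular junction, measured 9.49, 12.2 and 8.85 CPM in shRNH1 and 16.9, 19.8 and 21.1 CPM in shControl. The groups did not overlap, and it fell to 52.9% of control (44.2% to 63.3%; adjusted p = 3.17e-06, edgeR QL, BH adjustment). Its class therefore held a rise and a fall, while COL23A1 and COL25A1 had 0 to 4 counts per library.

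In type IV collagen, the chains of the common basement membrane network fell, and of the pair on the X chromosome COL4A5 rose. The 6 type IV genes lie in 3 pairs, each head to head, so that the genes of a pair are read in opposite directions from neighbouring starts. By the RefSeq starts, COL4A1 and COL4A2 on chromosome 13 begin 127 bases apart, COL4A5 and COL4A6 on chromosome X 380 bases apart, and COL4A3 and COL4A4 on chromosome 2 419 bases apart. The windows from 250 bases before to 50 bases after a start are shown for the pairs with testable levels, because both genes of a pair start in or beside this DNA. They are from RefSeq on GRCh38.p14, written 5′ to 3′ on the strand of the named gene, with matches to CCAAT and to the GC box GGGCGG, on either strand, in capitals. The COL4A1 window is not repeated, since it shares 226 bases with that of COL4A2 on the other strand.
COL4A2 (chr13:110307034-110307333, plus strand): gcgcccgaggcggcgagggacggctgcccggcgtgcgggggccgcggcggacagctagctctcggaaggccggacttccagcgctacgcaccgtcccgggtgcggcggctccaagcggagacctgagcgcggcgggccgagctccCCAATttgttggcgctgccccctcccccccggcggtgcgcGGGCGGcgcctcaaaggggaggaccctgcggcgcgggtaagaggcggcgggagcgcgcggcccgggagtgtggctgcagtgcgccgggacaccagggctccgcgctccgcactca
COL4A5 (chrX:108439588-108439887, plus strand): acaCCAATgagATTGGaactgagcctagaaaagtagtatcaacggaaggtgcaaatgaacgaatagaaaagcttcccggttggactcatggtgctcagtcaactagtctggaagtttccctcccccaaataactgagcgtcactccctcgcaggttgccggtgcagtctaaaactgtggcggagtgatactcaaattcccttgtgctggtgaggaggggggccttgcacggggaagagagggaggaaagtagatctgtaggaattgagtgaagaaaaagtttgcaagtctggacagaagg
COL4A6 (chrX:108439409-108439708, minus strand): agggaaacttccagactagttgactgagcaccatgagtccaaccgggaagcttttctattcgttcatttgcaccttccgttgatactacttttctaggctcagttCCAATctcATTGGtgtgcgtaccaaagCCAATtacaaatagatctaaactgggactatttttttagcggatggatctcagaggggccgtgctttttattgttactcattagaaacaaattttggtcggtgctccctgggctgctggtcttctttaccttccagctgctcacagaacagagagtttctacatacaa
The COL4A2 window is 77.7% GC and holds 1 CCAAT match and 1 GC box. The X windows are 49.3% GC for COL4A5 and 43.7% GC for COL4A6, share 121 bases, and hold no GC box and 2 and 3 CCAAT matches, the first 2 of COL4A6 being those of COL4A5 on the other strand. RefSeq holds another COL4A6 window, chrX:108438373-108438672, not shown, which is 50% GC with 1 GC box and no CCAAT match. A CCAAT match is in 34.6% and a GC box in 45% of all 35116 RefSeq windows of this length, and a match is a description of letters, not a site.

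COL4A1 (ENSG00000187498; chromosome 13, 110148963 to 110307233, minus strand) measured 84.9, 78.9 and 68.1 CPM in shRNH1 and 130.2, 119 and 142 CPM in shControl. All 3 shRNH1 libraries were lower, and COL4A1 fell to 59.3% of control (51.4% to 68.3%; adjusted p = 1.70e-06, edgeR QL, BH adjustment). Its partner COL4A2 (ENSG00000134871; chromosome 13, 110305812 to 110513209, plus strand), whose chain joins that of COL4A1 in the same trimer, measured 223, 235 and 184 CPM in shRNH1 and 265, 243 and 324 CPM in shControl. The groups came close without overlap, and COL4A2 fell to 77.1% of control (66.0% to 90.2%; adjusted p = 0.0111, edgeR QL, BH adjustment). Its call rests on replicate 3 of each group: by edgeR QL with BH adjustment, the log2 fold change of -0.37 became -0.25 without shControl replicate 3 (adjusted p = 0.0577), -0.28 without shRNH1 replicate 3 (adjusted p = 0.107) and -0.25 with an offset for expression level (adjusted p = 0.0919).

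COL4A5 (ENSG00000188153; chromosome X, 108439844 to 108697545, plus strand) encodes the chain that is mutated in X-linked Alport syndrome, and in skin and oesophagus it forms a trimer with COL4A6. It measured 134, 119 and 109.8 CPM in shRNH1 and 91.9, 95.8 and 94.1 CPM in shControl. The groups did not overlap, and COL4A5 rose 1.29-fold (1.13 to 1.47; adjusted p = 0.00424, edgeR QL, BH adjustment). That call was lost without shRNH1 replicate 1 (log2 fold change of 0.28 in place of 0.36, adjusted p = 0.0526, edgeR QL, BH adjustment). COL4A6 (chromosome X, 108155607 to 108439497, minus strand) measured 158, 136 and 133 CPM in shRNH1 and 144, 150.4 and 153 CPM in shControl, which overlap. It was not called, with a ratio of 0.955 (0.836 to 1.09). The pair on chromosome 2, which builds the network of the kidney glomerulus, was close to the limit of counting, with 9, 21 and 16 counts of COL4A4 in shRNH1 and 8, 20 and 10 in shControl.

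Because partner chains are needed together, the ratio of the RPKM of partner chains was taken in each library. Of 12 listed pairs, 6 had both chains past the filter and were compared. COL4A1 to COL4A2 was 0.474 ± 0.0311 in shRNH1 and 0.619 ± 0.0390 in shControl (SD, n = 3 each), a difference of -0.38 in log2 ratio. COL4A5 to COL4A6 was 0.664 ± 0.0178 in shRNH1 and 0.493 ± 0.00932 in shControl, a difference of 0.43. In both pairs all 3 shRNH1 libraries lay on 1 side of all 3 shControl libraries, below them for COL4A1 to COL4A2 and above them for COL4A5 to COL4A6.

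The groups did not overlap in the other 4 pairs either. COL6A1 to COL6A2 was 8.54 ± 0.737 in shRNH1 and 6.66 ± 0.481 in shControl. COL5A1 to COL5A3 was 18.3 ± 1.58 in shRNH1 and 11.3 ± 0.603 in shControl. COL5A1 to COL5A2 was 291 ± 57.6 in shRNH1 and 491 ± 71.1 in shControl, but COL5A2 had 31 to 50 counts per library. COL9A2 to COL9A3 was 0.129 ± 0.0460 in shRNH1 and 0.247 ± 0.0244 in shControl, with 66 to 112 counts of COL9A2 per library. None of these differences could pass 0.05: each of the 6 exact two-sided permutation tests gave p = 0.1, the smallest that 3 libraries against 3 allow, and 0.1 after Benjamini-Hochberg adjustment over the 6 pairs. Groups that do not overlap were found for 40% of all genes tested, a share over single genes that was not taken over ratios. The chains COL4A1, COL4A2, COL4A5, COL5A3, COL6A1 and COL9A3 were themselves called, so ratios that hold them partly restate those calls. The level of a ratio depends on the exon lengths used while its difference between groups does not, and COL5A1 is in 2 of the pairs.

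**Figure D3:**
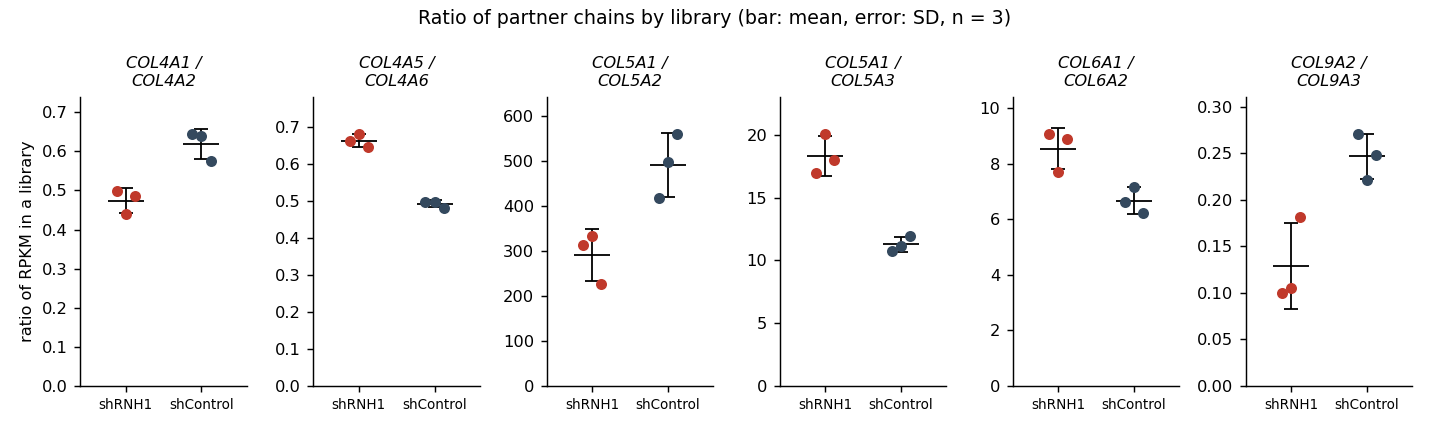
Ratio of the RPKM of partner chains in each library (points), with mean and SD over 3 libraries, shRNH1 left of shControl. In each of the 6 pairs all 3 shRNH1 libraries lie on the same side of all 3 shControl libraries, as for COL4A5 to COL4A6 (0.664 and 0.493).

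Of the fibrillar collagens, COL1A1 rose and COL5A3 and COL27A1 fell, while COL5A1, the most abundant, was not called. COL1A1 (ENSG00000108821; chromosome 17, 50183289 to 50201632, minus strand), the main chain of type I collagen, measured 131, 129 and 109 CPM in shRNH1 and 59.1, 60.1 and 68.2 CPM in shControl. No library of the groups overlapped, and COL1A1 rose 1.97-fold (1.71 to 2.27; adjusted p = 1.88e-08, edgeR QL, BH adjustment), the smallest p of the collagen genes. Its usual partner COL1A2 was listed at 0 in all 6 libraries, and COL3A1, which is made beside type I in connective tissue, had 0 to 3 counts per library. Markers of fibroblasts, the usual source of COL1A1, were measured beside it. Of 15 such markers other than collagens, DCN, DPT and FAP were at 0 in all libraries, 9 were tested, 2 were higher (FBLN1 and S100A4) and 3 lower (MFAP5, PDGFRB and VIM), where 27.6% of all genes tested were called. The summed level of the 15 was 674 to 723 CPM in shRNH1 and 573 to 638 CPM in shControl. Without FBLN1 it was 242 to 299.7 CPM in shRNH1 and 344 to 379 CPM in shControl, the opposite direction. Most of that second sum was VIM, at 214 to 268 CPM in shRNH1 and 298 to 336 CPM in shControl. The median log2 fold change of the 9 tested markers was 0.33. Summed leukocyte markers were at 8.12 to 10.3 CPM in shRNH1 and 6.01 to 7.60 CPM in shControl, and summed endothelial markers at 23.5 to 25.2 CPM in shRNH1 and 22.9 to 25.3 CPM in shControl. The part of these markers in the rise of COL1A1 was not tested.

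COL27A1 (ENSG00000196739; chromosome 9, 114155560 to 114312511, plus strand), a fibrillar collagen best known from cartilage, measured 37.6, 41.5 and 34.0 CPM in shRNH1 and 66.3, 82.0 and 76.0 CPM in shControl. The groups stood well apart, and it fell to 50.4% of control (43.6% to 58.3%; adjusted p = 2.96e-08, edgeR QL, BH adjustment). COL5A3 (ENSG00000080573; chromosome 19, 9959561 to 10010471, minus strand), a type V chain that can join COL5A1 and COL5A2, measured 22.7, 21.4 and 17.2 CPM in shRNH1 and 34.2, 30.3 and 39.0 CPM in shControl. It fell to 59.3% of control (50.4% to 69.8%; adjusted p = 1.32e-05, edgeR QL, BH adjustment) with no overlap. COL5A1 itself (chromosome 9, 134641774 to 134844843, plus strand) measured 639, 713 and 513 CPM in shRNH1 and 611, 561 and 774 CPM in shControl. These ranges overlap widely, and its ratio of 0.959 had an interval of 0.807 to 1.14. The low fibrillar genes COL5A2, COL2A1 and COL11A2 had log2 fold changes of 0.70, 0.68 and -0.49, with 95% intervals of the ratio of 1.07 to 2.45, 0.879 to 2.91 and 0.487 to 1.04, and were not called after adjustment over all genes.

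The FACIT class held the largest change among the called collagen genes, COL16A1, and a rise of similar size in COL9A3. COL16A1 (ENSG00000084636; chromosome 1, 31652247 to 31704319, minus strand), which lies along fibrils and microfibrils, measured 3.89, 4.47 and 3.61 CPM in shRNH1 and 7.42, 8.52 and 9.91 CPM in shControl. It fell to 46.4% of control (37.3% to 57.7%; adjusted p = 3.24e-06, edgeR QL, BH adjustment), the only called collagen gene past a 2-fold change. COL9A3 (ENSG00000092758; chromosome 20, 62816244 to 62841159, plus strand), a chain of type IX collagen on the fibrils of cartilage, measured 22.5, 28.1 and 19.3 CPM in shRNH1 and 10.2, 11.2 and 14.1 CPM in shControl. It rose 1.97-fold (1.63 to 2.39; adjusted p = 2.45e-06, edgeR QL, BH adjustment) without overlap of the groups. Its partners were not called: COL9A1 was listed at 0 and COL9A2 had a ratio of 1.00 (0.733 to 1.37). COL12A1 (chromosome 6, 75084326 to 75206051, minus strand), the most abundant FACIT, which decorates type I fibrils, measured 108, 105 and 105 CPM in shRNH1 and 114, 106 and 105 CPM in shControl, at a ratio of 0.980 (0.864 to 1.11). COL20A1 had 12, 19 and 17 counts in shRNH1 and 7, 10 and 8 in shControl and was not called, with a ratio of 2.19 (1.10 to 4.35).

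Of the beaded filament genes COL6A1 alone was called. COL6A1 (ENSG00000142156; chromosome 21, 45981737 to 46005050, plus strand) measured 275, 269 and 243 CPM in shRNH1 and 176, 176 and 217 CPM in shControl. The groups did not overlap, and it rose 1.38-fold (1.20 to 1.59; adjusted p = 0.000824, edgeR QL, BH adjustment). COL6A2 (chromosome 21, 46098097 to 46132849, plus strand), its neighbour and partner, measured 30.6, 35.3 and 27.6 CPM in shRNH1 and 26.9, 24.8 and 35.3 CPM in shControl, with a ratio of 1.08 (0.908 to 1.27). COL6A3, the other chain of the classical type VI trimer, had 5, 6 and 8 counts in shRNH1 and 4, 2 and 4 counts in shControl and was not tested. COL6A6, which can stand in its place, had a ratio of 0.692 (0.333 to 1.44).

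The remaining classes had no called gene. COL18A1 (chromosome 21, 45405137 to 45513720, plus strand), a basement membrane proteoglycan core from which endostatin is cut, measured 133, 164 and 119 CPM in shRNH1 and 142, 140.3 and 192 CPM in shControl, at a ratio of 0.876 (0.740 to 1.04). In GENCODE 29 it shares 1401 exon bases, 16.4% of its exon length, with SLC19A1 on the other strand, which fell (log2 fold change of -0.49), and without a stated strand setting reads there could not be told apart. For the other collagen genes such shared stretches made up at most 4% of exon bases. COL15A1, the other multiplexin, and the hexagonal network genes COL8A2 and COL10A1 had ratios of 0.986, 1.02 and 0.805, with 22 to 117 counts per library. COL26A1 and COL28A1 had ratios of 1.32 and 1.23, with 19 to 46 counts per library. Their intervals reach from 0.582 to 2.15 over these 5 genes, so changes of moderate size could not be detected at these depths.

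**Figure D4:**
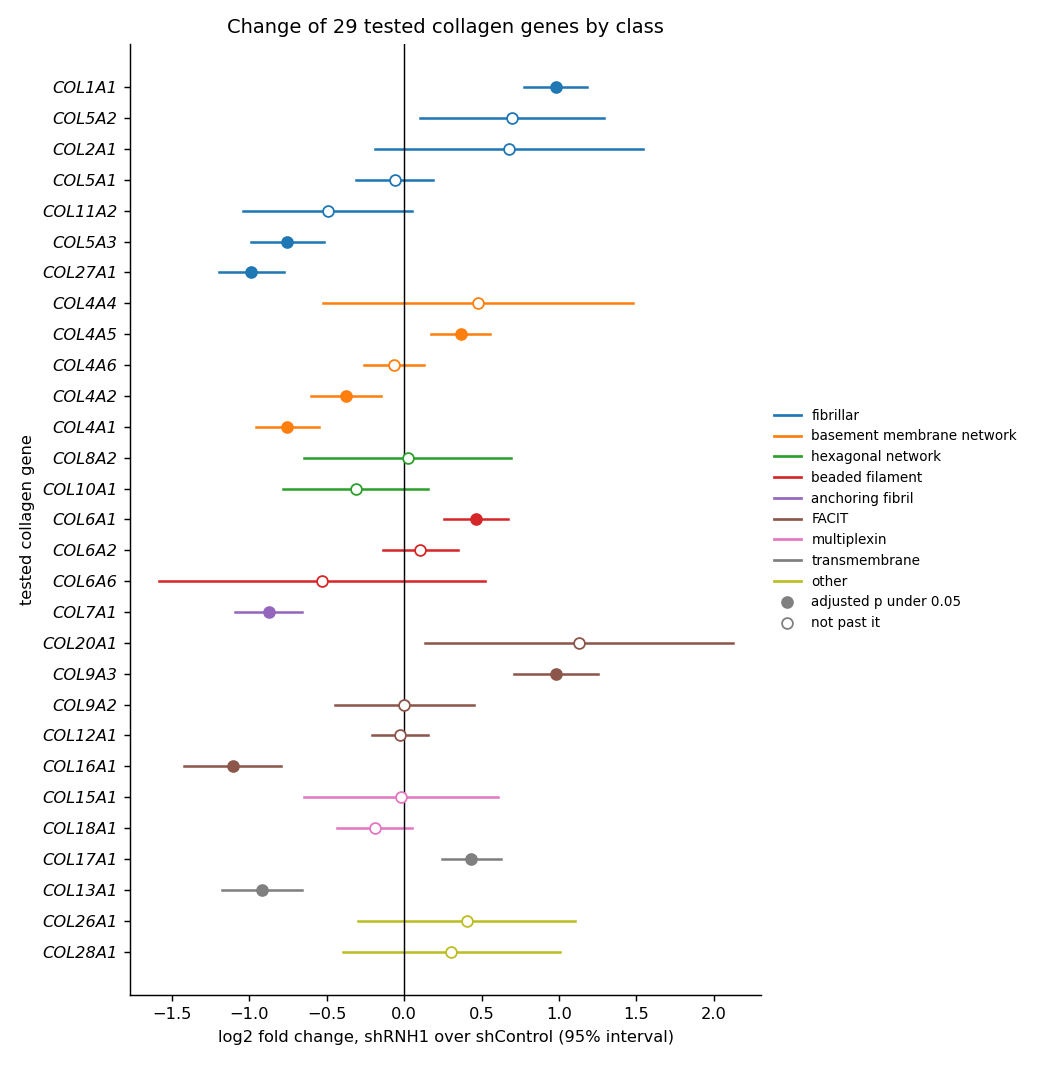
Log2 fold change of shRNH1 over shControl with 95% intervals for the 29 tested collagen genes, coloured by class; filled points passed the threshold. Rises and falls stand side by side in the fibrillar, basement membrane, FACIT and transmembrane classes, from -1.11 for COL16A1 to 0.98 for COL1A1 and COL9A3 among filled points.

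Replicate 3 of each group stood out among the collagen genes. Of the 29 tested, 19 had their lowest CPM of the group in shRNH1 replicate 3 and 20 had their highest in shControl replicate 3, against 34.5% and 37.7% of all genes tested. The median GC content of the longest transcript was 61.3% for the 29 collagen genes and 49.5% for all tested genes with a value. With an offset for GC content and transcript length the same 5 genes were called higher and the same 7 lower. Without shRNH1 replicate 3 all 5 higher and 6 of the 7 lower calls remained, and likewise without shControl replicate 3, COL4A2 being the call lost in both.

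Enzymes and partners of the collagen pathway did not move as a block, as given by 7 lists. Collagen chains are hydroxylated and folded in the endoplasmic reticulum, exported in large carriers, trimmed of their propeptides and cross-linked outside the cell. The counts of these lists stand beside 15.3% called higher and 12.3% called lower, or 27.6% in all, over all genes tested. Of 16 tested genes of chain modification and folding, 5 were higher and 2 lower in shRNH1, with a median log2 fold change of 0.11. The proline hydroxylases P4HA1 (34.1 ± 1.79 CPM in shRNH1 and 24.4 ± 1.77 CPM in shControl) and P4HA2 and the lysine hydroxylase PLOD2 rose by 0.49, 0.33 and 0.39 on the log2 scale, P4HA2 losing its call without shControl replicate 2 or shRNH1 replicate 1. FKBP14, a prolyl isomerase, and P3H4, a partner in lysine hydroxylation, rose by 0.78 and 0.43. P3H2, a prolyl hydroxylase that acts on type IV collagen, fell to 24.5 ± 0.226 CPM in shRNH1, against 37.5 ± 3.38 CPM in shControl (SD, n = 3 each; log2 fold change of -0.61). SERPINH1, the collagen chaperone, had a log2 fold change of -0.26 (adjusted p = 0.0498, edgeR QL, BH adjustment) and was not called in 8 of 15 alternatives, the replicate block among them.

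Among 9 tested genes of procollagen export 2 were called (22.2%, against 27.6% of all genes tested), a share no higher than the background. They were MIA2 (log2 fold change of 0.63), which helps to load large cargo, and SEC23A (0.30), whose call was lost in 7 of 15 alternatives. Of 7 tested genes of propeptide processing 1 was called (14.3%, against 27.6%), ADAMTS14 (1.74). It had 0.354, 1.03 and 0.273 CPM in shRNH1 and 0.154, 0.121 and 0.217 CPM in shControl, so that it passed the filter of 0.272 CPM through the shRNH1 libraries alone, and its call was lost in 5 of 14 alternatives, with a log2 fold change of 0.93 without shRNH1 replicate 2. BMP1, which cuts the C-propeptides of fibrillar collagens, had a log2 fold change of -0.13 and was not called. The median of the export list was -0.04.

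The cross-linking enzymes split. The lysyl oxidase genes LOXL1 and LOX rose, LOX to 3.83 ± 0.802 CPM in shRNH1, against 1.95 ± 0.272 CPM in shControl. LOXL2, which acts on type IV collagen, fell to 162 ± 10.6 CPM in shRNH1, against 235 ± 22.5 CPM in shControl, and the transglutaminase gene TGM2 fell to 429 ± 5.16 CPM, against 1567 ± 124 CPM (SD, n = 3 each). These 4 of the 7 tested had log2 fold changes of 1.57, 0.98, -0.53 and -1.87, and adjusted p of 1.82e-13 to 0.000754 (edgeR QL, BH adjustment). PXDN, the peroxidase that links type IV collagen, was low, at 0.416 ± 0.194 CPM in shRNH1 and 0.628 ± 0.323 CPM in shControl.

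Of 8 tested collagen receptors 2 were called, both higher in shRNH1 (25%, against 27.6% of all genes tested), a share near the background. MRC2, an endocytic receptor for collagen, measured 6.04 ± 0.998 CPM in shRNH1 and 2.57 ± 0.568 CPM in shControl, and the integrin chain ITGA1, which prefers type IV collagen, 4.99 ± 0.203 CPM in shRNH1 and 3.09 ± 0.488 CPM in shControl (SD, n = 3 each). The abundant receptor DDR1, a kinase that collagen activates, had 704 ± 45.5 CPM in shRNH1 and 694 ± 34.7 CPM in shControl, and ITGA2 and ITGB1, which form the main epithelial collagen receptor, had log2 fold changes of 0.10 and -0.01. None of these 3 was called.

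Collagen-binding partners had 5 higher and 3 lower of 11 tested, with a median log2 fold change of 0.15, where 15.3% of all genes tested were called higher and 12.3% lower. NID1, among the 5 higher, lost its call in 7 of 15 alternatives. Besides the hemidesmosome genes above, FBLN1, a fibulin of the basement membrane, rose to 418 ± 21.3 CPM in shRNH1, against 241 ± 15.8 CPM in shControl. The small proteoglycan genes PRELP and BGN rose by 2.32 and 1.63 on the log2 scale at low levels. PRELP had 66, 44 and 57 counts in shRNH1 and 13, 9 and 16 counts in shControl. It met the level of the filter on low counts in every library of shRNH1 only. Regulators of collagen genes had 3 higher and 8 lower of 21 tested, with a median of -0.18, beside the same 15.3% and 12.3% of all genes tested. Among these, the lower call of SMAD4 was lost in 10 of 15 alternatives and the higher call of TGFBR1 in 7. The members with the smallest p were CCN2, a matricellular protein induced by TGF-beta, the transcription factors RUNX2 and SOX9, and the TGF-beta receptor TGFBR2, which fell by 2.33, 0.91, 1.04 and 0.55 on the log2 scale, whereas SP1, a factor that binds GC boxes, had a log2 fold change of 0.02 and was not called.

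**Figure D5:**
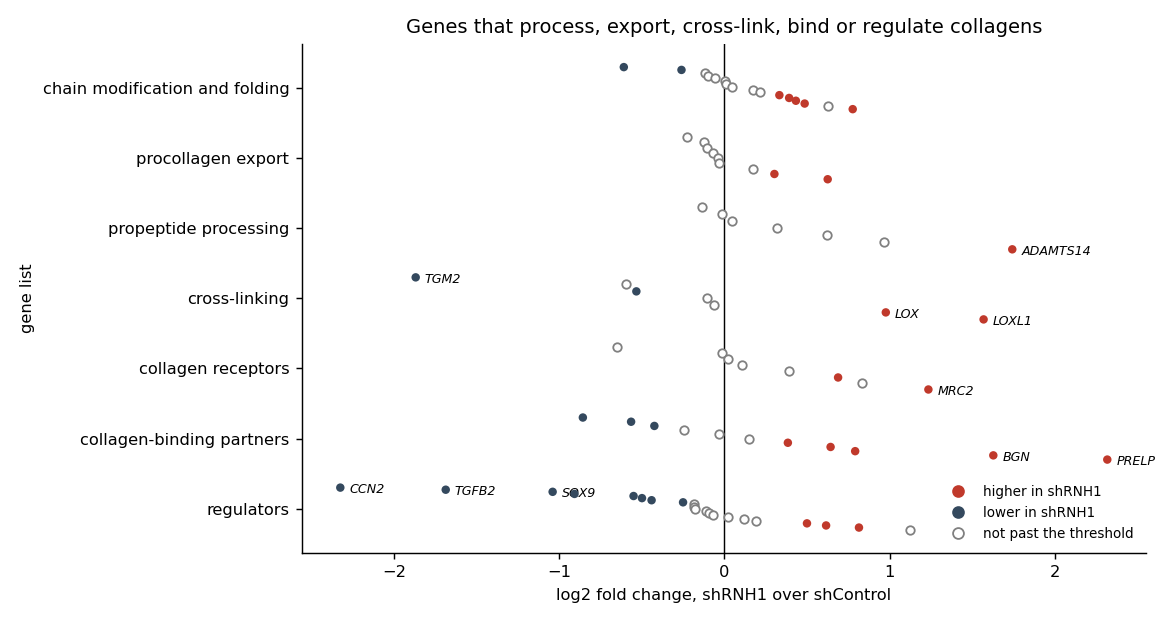
Log2 fold change of shRNH1 over shControl for the tested genes of 7 lists; filled points passed the threshold, red for higher and dark blue for lower in shRNH1. Cross-linking genes lie at both ends, from TGM2 at -1.87 to LOXL1 at 1.57, and the list of regulators has 8 filled points to the left and 3 to the right.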

How the data were processed

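The assay was poly(A) RNA sequencing, and the deposited values are raw counts per Ensembl gene ID in 6 libraries, with no normalisation by the authors, per the file headers and values. The submitters' processing notes name HISAT2, StringTie, DESeq2 and GRCh38 and give no versions; the read counter, its strand setting and the annotation release were not stated. Symbols were found for 62700 of 62700 IDs, and positions and exon lengths came from GENCODE 29. Genes were tested with edgeR's quasi-likelihood test (edgeR 4.0.16, R 4.3.3) after TMM and filterByExpr with the groups given, on 19682 genes; the model held the group alone, and p-values were adjusted with Benjamini-Hochberg at 0.05. Standard errors came from the F statistic. The scripts were first tested on simulated data. Intervals of ratios are 95% and cover the spread between libraries. RPKM is CPM per kilobase of all annotated exons, and chain ratios were tested by an exact permutation test. No 2 replicates of a group agreed within sampling noise (chi-square of 5.90 to 18.5 per gene). Names followed a rule: collagen genes past the threshold, the most abundant of each class, chains of compared pairs, and up to 4 called members per list. Other genes, such as P4HA2, DST and BMP1, were named after their values were seen. Members, classes and lists were chosen with earlier results of these data known. As alternatives, the test was repeated with RLE size factors or plain library size, with DESeq2 1.42.0 and limma-voom (limma 3.58.1), without a filter and with one at a CPM of 1 in 3 libraries, with a replicate block, with 2 offsets (for GC content and length, and for expression level), and with each library left out.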

Additional observations from a re-analysis of the deposited data

How the results depend on the processing

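Of the 12 called collagen genes, 10 kept direction and call in all 15 alternatives; COL4A2 and COL4A5 are described above. Over the alternatives 4 to 6 collagen genes were called higher and 6 to 8 lower. Leaving out a library gave 4 to 5 higher and 6 to 8 lower, and 4150 to 5210 genes in all, against 5424. By library size alone 1433 of all genes were lower, against 2418, the median log2 fold change of all genes was 0.13, and COL5A2 passed (0.81, adjusted p = 0.0393, edgeR QL, BH adjustment). COL11A2 passed without shRNH1 replicate 2 (-0.81). Same-numbered deviations from the group means correlated weakly across genes, at 0.045, 0.056 and -0.049. The labels do not say whether same-numbered libraries were prepared together, and weak correlations cannot settle it. With the replicate block 5094 genes passed, and the collagen counts stayed at 5 and 7. Chain ratio differences kept their direction with 0.5 added to each count and with each library left out, from -0.44 to -0.33 for COL4A1 to COL4A2, 0.41 to 0.45 for COL4A5 to COL4A6, -0.88 to -0.59 for COL5A1 to COL5A2, 0.63 to 0.75 for COL5A1 to COL5A3, 0.31 to 0.43 for COL6A1 to COL6A2 and -1.26 to -0.83 for COL9A2 to COL9A3.

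Some collagen genes that were not called changed sign around 0, and the cause was not tested. COL8A2 (0.02) became -0.0024 with DESeq2, -0.027 with limma-voom, -0.0081 with the replicate block, -0.052 with the GC and length offset, -0.041 with the offset for expression, and ran from -0.12 to 0.26 without 1 library. COL9A2 (0.00044) became -0.020 with RLE, -0.027 with DESeq2, -0.0042 with limma-voom, -0.0060 with no filter, -0.0061 with the replicate block, -0.10 with the GC and length offset, -0.15 with the offset for expression, and ran from -0.16 to 0.16 without 1 library. Library size alone turned COL12A1, COL15A1, COL5A1 and COL4A6 (-0.029, -0.020, -0.061 and -0.066) to 0.082, 0.098, 0.059 and 0.045. The offset for expression turned COL12A1, COL5A1 and COL4A6 to 0.046, 0.11 and 0.026. Without 1 library COL12A1 ran from -0.056 to 0.0089, COL15A1 from -0.16 to 0.20, COL5A1 from -0.17 to 0.087 and COL6A2 (0.10) from -0.0070 to 0.27. Genes under about 1 RPKM carried standard errors of up to 0.513 in log2.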

Other observations

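RefSeq windows, from 250 bases before to 50 bases after a start, matched 32 of the 44 collagen genes, with 44 windows. A GC box (GGGCGG, either strand) was in 24 of these windows (54.5%), against 45% of all 35116 windows, and CCAAT in 14 (31.8%), against 34.6%. The AP-1 motif TGANTCA was in 1 of the 44 windows (2.27%), a start of COL10A1, against 7.71% of all windows. CATTCC, the core that TEAD factors bind, was in 3 (6.82%), against 14% of all, and TATAAA was in 8 (18.2%), against 11.5%. Among the 9 called genes that had a window, TATAAA matches were in COL7A1, COL13A1 and COL17A1. The other matches were in windows of COL6A2, COL6A6, COL10A1 and COL18A1, which were not called.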
